A study of Arabidopsis thaliana with 12 samples.

Results

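Genes for steps of plastid pigment synthesis are described here across 12 columns of array values. They are the tetrapyrrole genes HEMA3 (AT2G31250), CHLM (AT4G25080) and AT1G74470, and the carotenoid gene Z-ISO (AT1G10830). Probes were used only where the platform annotation names exactly 1 gene. Each of the 4 genes had 1 such probe, out of 692 of this kind and 3439 probes in all. The samples were total RNA from wild-type plants of Arabidopsis thaliana, ecotype Landsberg. Every plant had received 50 µM paraquat, a bipyridinium herbicide that takes electrons from photosystem I in the light and passes them to oxygen. In 6 columns, called dark, the plants had been kept in darkness for 12 h, and in 6 columns, called light, they were sampled 30 min after such a dark period had ended. The comparison asks how transcript levels of herbicide-treated plants differed with the return to light. No untreated plants were among the samples, so an effect of paraquat cannot be told apart from an effect of light alone, and the later sampling cannot be told apart from light.

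Chlorophyll is built in the plastid from glutamate through a chain of tetrapyrroles. Glutamyl-tRNA reductase, encoded by the HEMA genes, makes the first committed intermediate, and this step is the main point of control over the flow into both chlorophyll and haem. After magnesium is inserted into protoporphyrin, the methyltransferase CHLM adds the methyl group that the later ring-forming step needs. Geranylgeranyl reductase, the enzyme that AT1G74470 encodes, supplies the phytyl chain that forms the tail of chlorophyll and of tocopherols. AT1G74470 is counted here among the tetrapyrrole genes for its part in chlorophyll, although its enzyme acts on the chain rather than on the ring. Carotenoids arise from the same geranylgeranyl precursor, and the isomerase Z-ISO acts on zeta-carotene between the desaturation steps that lead to lycopene. Free tetrapyrroles and excited chlorophyll pass energy to oxygen in the light, and carotenoids of the thylakoid quench such excited states.

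Z-ISO fell by 0.53 on the log2 scale after return to light, its dark level being 1.44 times its light level, whereas none of the 3 tetrapyrrole genes passed the test. HEMA3 had a difference of the opposite sign, log2 0.36, and CHLM and AT1G74470 had differences near 0. Of the 3409 probes tested, 5.78% were called at an adjusted p under 0.05 (limma, Benjamini-Hochberg over all probes tested), 2.61% as higher and 3.17% as lower in light. These were 89 higher and 108 lower, against 62 and 117 on values as deposited and 110 and 98 after median centring. With the replicate number as a block the share called was 13.1%, and the same single gene of the 4 was among the calls. With consecutive replicate numbers of a group averaged, 0 probes were called, so Z-ISO did not pass there. The median log2 difference was -0.054 over the 4 genes and 0.0019 over all probes tested. Differences are on the scale of log2 of the quantile-normalised intensity plus a small offset. Means, medians and ranges are linear intensities as deposited, and their ratios need not equal the fold.

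The deposited intensities had no stated scaling. Column totals lay between 3466 and 3664 and column medians between 0.559 and 0.635. None of the 4 genes was listed at 0 in any column, and the mean intensity of each was above 0.330, the lower quartile over all probes. The labels do not say whether columns of 1 group are separate plants, so the p-values reflect a spread between columns that may be technical. In RNA of whole plants, fewer cells of a type and less RNA per cell cannot be told apart. Of 11 markers fixed for green tissue 1 had a probe naming 1 gene. It was LHB1B2, a light-harvesting protein of photosystem II, with an intensity of 9.26 to 13.1 in dark and of 10.4 to 14.8 in light. None of the 4 root markers had such a probe, so the share of root in the samples was not tested.

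**Figure D1:**
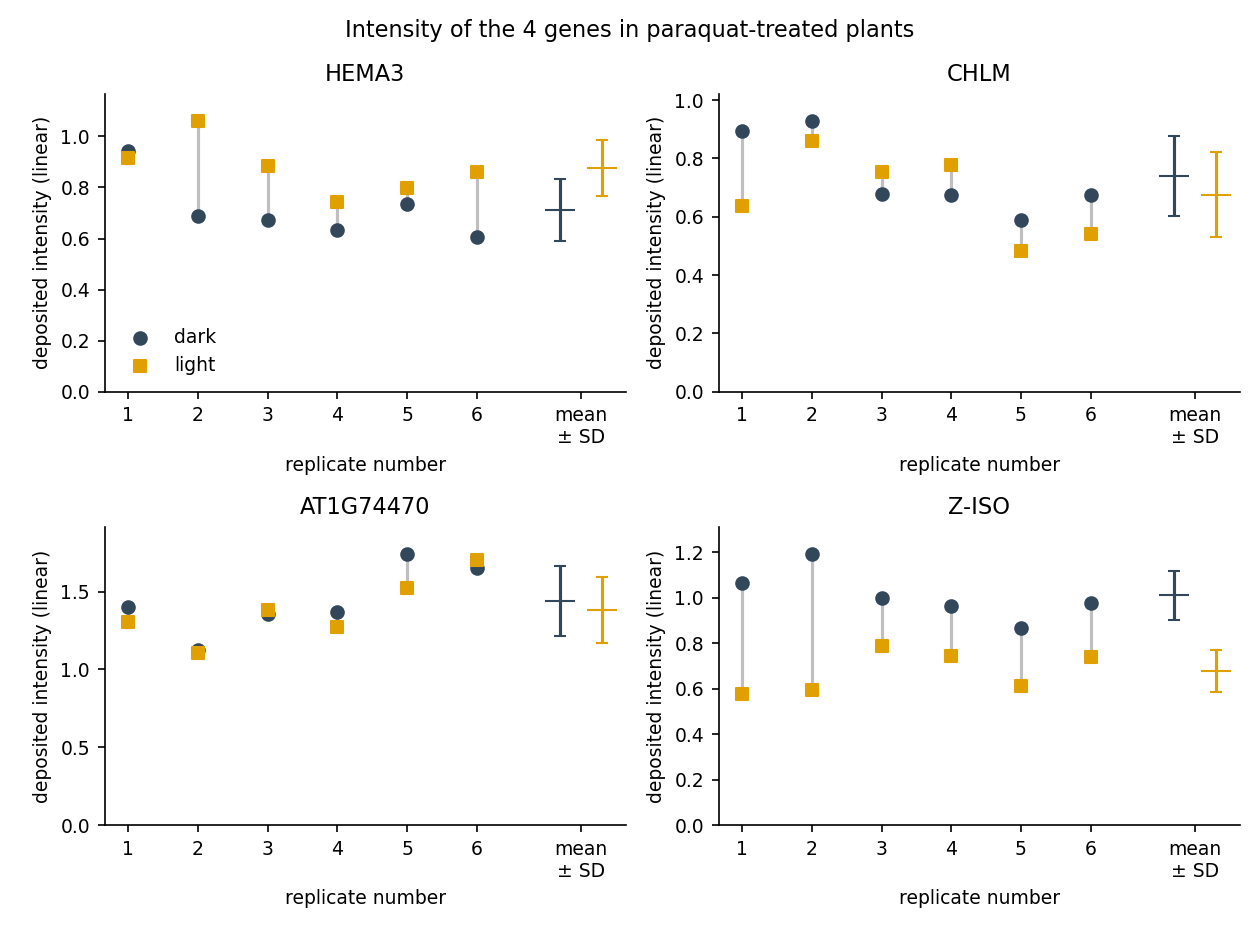
Deposited linear intensity of HEMA3, CHLM, AT1G74470 and Z-ISO in each dark column (circles) and light column (squares) by replicate number, with the group mean ± SD at the right of each panel (n = 6 columns). Z-ISO lies below its dark partner in every light column, HEMA3 lies above it in all but number 1, and CHLM and AT1G74470 follow the replicate number more than the light.

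HEMA3 is the third member of the Arabidopsis family of glutamyl-tRNA reductase genes. HEMA1 and HEMA2 had no probe naming 1 gene, so the values of HEMA3 do not stand for the family or for this step as a whole. The intensity of HEMA3 in dark ran from 0.605 to 0.941 with a median of 0.681. In light it ran from 0.742 to 1.06 with a median of 0.872. The groups overlapped through dark column 1, which at 0.941 was above 5 of the 6 light columns. The mean was 0.713 ± 0.121 in dark and 0.877 ± 0.110 in light (SD, n = 6), a log2 difference of 0.36 with a 95% interval of 0.11 to 0.61 that did not pass the threshold (limma adjusted p = 0.0939, or 0.0655 in the fit with the replicate block). On the normalised scale HEMA3 was higher in light in 6 of 6 same-numbered comparisons, by log2 0.12 to 0.77, a pattern that 11.1% of all probes tested shared. Without dark column 1 the difference was log2 0.43 and passed (limma adjusted p = 0.0431). It also passed when each column was centred within runs of 96 probe numbers (log2 0.48, limma adjusted p = 0.0306), a setting that called 4.28% of all probes tested, and with consecutive numbers of both groups as a random block (limma adjusted p = 0.0301), which called 13.2%. It did not pass with consecutive numbers averaged, either without a block (limma adjusted p = 0.471) or with the replicate block (0.218). Over the alternatives tried the log2 difference stayed between 0.30 and 0.48 and the adjusted p between 0.0301 and 0.471. The sequence of the probe was not used here, so whether transcripts of the related HEMA genes add to its signal was not tested.

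CHLM, which acts at the magnesium branch of the pathway, had dark intensities of 0.590 to 0.930 with a median of 0.677. Its light intensities ran from 0.484 to 0.861 with a median of 0.695. The ranges overlapped over most of their length. The means were 0.740 ± 0.137 in dark and 0.676 ± 0.147 in light (SD, n = 6), with a log2 difference of -0.089 and a 95% interval of -0.42 to 0.25 (limma adjusted p = 0.813). The interval therefore leaves room for a fall to 0.746 or a rise to 1.19 times the dark level. It narrowed to -0.33 to 0.15 on the log2 scale with the replicate number as a block (limma adjusted p = 0.586). By replicate number the sign varied, with 3 numbers lower and 3 higher in light. The mean difference was -0.14 on the log2 scale for numbers 1 and 2, 0.18 for numbers 3 and 4, and -0.31 for numbers 5 and 6.

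AT1G74470, the geranylgeranyl reductase gene, had dark intensities of 1.12 to 1.74 with a median of 1.38. Its light intensities ran from 1.10 to 1.71 with a median of 1.34. Both groups thus spanned nearly the same range, and the lowest column of each was number 2. The means were 1.44 ± 0.224 in dark and 1.38 ± 0.210 in light (SD, n = 6), with a log2 difference of -0.019 and a 95% interval of -0.33 to 0.29 (limma adjusted p = 0.972). With the replicate number as a block the interval narrowed to -0.15 to 0.11 on the log2 scale. Same-numbered columns differed by log2 -0.19 to 0.11, and light was higher in 4 of 6 numbers.

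Z-ISO had dark intensities of 0.869 to 1.19 with a median of 0.988. Its light intensities ran from 0.577 to 0.791 with a median of 0.678. The groups did not overlap, either in these intensities or in the normalised values. In the normalised values 2.35% of all probes tested had such a separation in the direction lower in light. The mean went from 1.01 ± 0.109 in dark to 0.677 ± 0.0922 in light (SD, n = 6), a log2 difference of -0.53 with a 95% interval of -0.72 to -0.33 (limma adjusted p = 0.00862, or 0.0188 in the fit with the replicate block). Of all probes tested, 5.72% had a lower log2 difference than Z-ISO. The gene was lower in light in 6 of 6 numbers, as were 10.8% of all probes tested. The size was not even over the numbers: the mean log2 difference was -0.80 for numbers 1 and 2, -0.35 for numbers 3 and 4, and -0.43 for numbers 5 and 6. Dark columns 1 and 2 had the highest dark intensities of Z-ISO, 1.06 and 1.19, and light columns 1 and 2 the lowest light ones, 0.577 and 0.594. Without numbers 1 and 2 the log2 difference was -0.39 (limma adjusted p = 0.0636), and without numbers 3 and 4 it was -0.62 (limma adjusted p = 0.0883), a setting in which limma called 0 probes of 3409, with 463 at an unadjusted p under 0.05. Z-ISO also did not pass with consecutive numbers averaged, either without a block (limma adjusted p = 0.414) or with the replicate block (0.225). Both of these settings called 0 probes. Over the alternatives tried the adjusted p of Z-ISO lay between 0.00285 and 0.414.

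**Figure D2:**
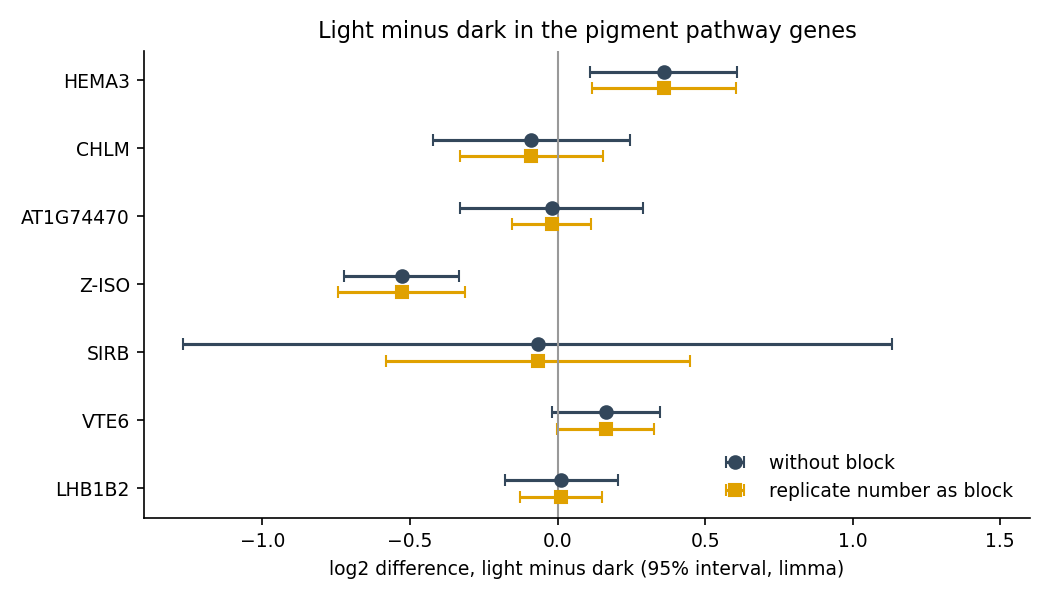
Log2 difference of light minus dark with its 95% interval from limma, without a block (circles) and in the fit that blocks on the replicate number (squares), for the 4 genes, for the related genes SIRB and VTE6 and for the green tissue marker LHB1B2 (n = 6 columns per group). The intervals of Z-ISO and HEMA3 lie on opposite sides of 0, and those of the other 5 genes include it. The intervals are not adjusted for the number of probes. Without a block, 683 of the 3409 probes tested had an unadjusted p under 0.05. HEMA3 did not pass after adjustment in either fit (limma adjusted p = 0.0939 and 0.0655).

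The carotenoid gene Z-ISO was then set against each tetrapyrrole gene within a column. The log2 ratio of Z-ISO to another gene is not moved by a factor shared by a whole column, and its change from dark to light shows whether the 2 probes changed unequally. The ratio of Z-ISO to HEMA3 was lower in light by log2 0.89, or 1.85-fold, with an exact 95% interval of -1.27 to -0.50 on the log2 scale. Its dark values, 0.17 to 0.81, did not overlap its light values, -0.83 to 0.0096, and the two-sided exact permutation p was 0.00216, the smallest possible for 6 columns against 6 (adjusted exact p = 0.00649 over the 3 ratios). These ratio levels depend on the probes and carry no meaning by themselves.

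Against CHLM, the Z-ISO ratio changed by log2 -0.44, with an exact interval of -0.80 to -0.094 (two-sided exact permutation p = 0.0216, adjusted exact p = 0.0216). Against AT1G74470 it changed by log2 -0.51, with an exact interval of -0.89 to -0.12 (two-sided exact permutation p = 0.0152, adjusted exact p = 0.0216). Here the groups overlapped for both ratios. All 3 ratios were lower in light in 6 of 6 numbers, for which the exact sign-flip test over same-numbered columns gives p = 0.03125, the smallest it can give. With consecutive numbers averaged to 3 columns a group the smallest possible exact p is 0.10, and the adjusted exact p was 0.20 for each. Without numbers 3 and 4 none of the 3 passed (adjusted exact p = 0.0857 to 0.229), and without numbers 1 and 2 the ratio to AT1G74470 did not (log2 -0.33, adjusted exact p = 0.114). Without numbers 3 and 4 the ratio to HEMA3 changed by log2 -1.0, and its dark and light values still did not overlap. Its exact p was then the smallest possible for 4 columns against 4, which adjustment over the 3 ratios took to 0.0857. Since the fall of Z-ISO was known when these ratios were chosen, their p-values are not independent evidence of it. All 3 ratios share the Z-ISO values, so they are not separate observations either.

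**Figure D3:**
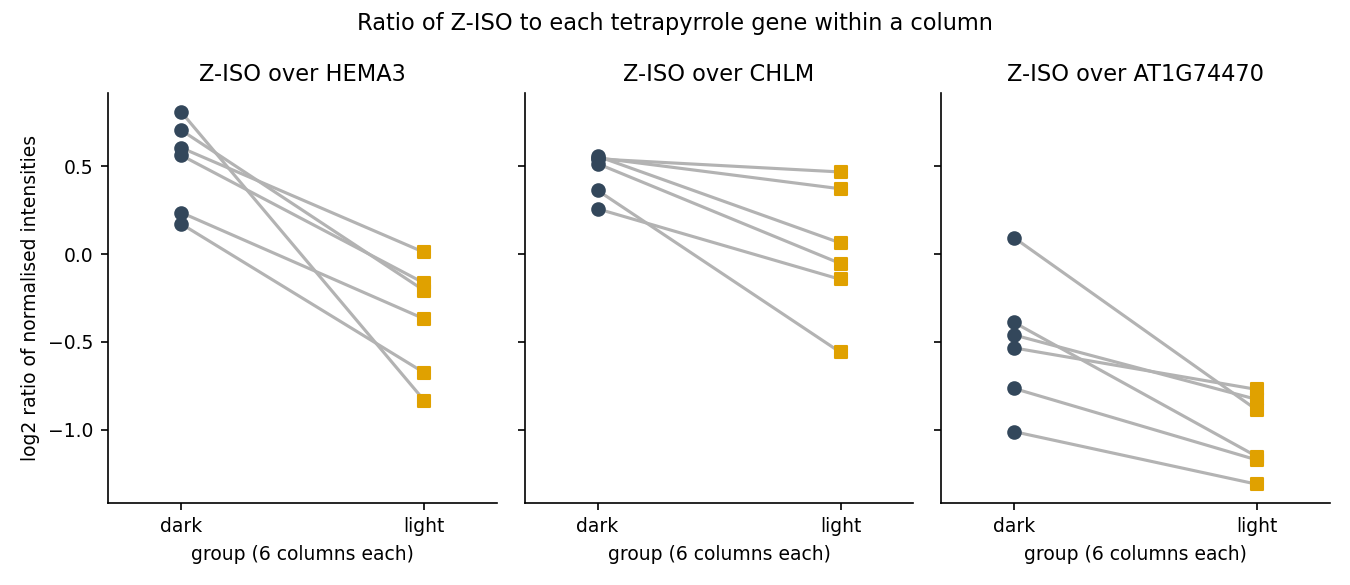
Log2 ratio of the normalised intensity of Z-ISO to that of HEMA3, CHLM and AT1G74470 within each column, for dark (circles) and light (squares), with lines joining columns of the same replicate number. All 18 lines fall from dark to light, and the dark and light values are separate only for the ratio to HEMA3. The panels share the Z-ISO values, so their lines are not separate observations.

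The tetrapyrrole genes were also compared among themselves, in 3 ratios chosen after the values were seen. HEMA3 rose relative to CHLM by log2 0.45, with an exact interval of 0.083 to 0.81 (two-sided exact permutation p = 0.026, adjusted exact p = 0.039 over all 6 ratios). That call was lost in 11 of 21 alternatives, 7 of them by leaving out 1 column, dark 2, 3, 4 or 6 or light 1, 5 or 6, with an adjusted exact p of up to 0.0779 among these 7. The change was log2 0.37 to 0.46 in those 7 and 0.36 to 0.61 in all 11. HEMA3 relative to AT1G74470 had a change of log2 0.38, with an exact interval of -0.061 to 0.82 (two-sided exact permutation p = 0.0801, adjusted exact p = 0.0961). Pairing by number changed this call: the ratio was higher in light in 6 of 6 numbers, and the exact sign-flip test gave p = 0.03125, the smallest it can give (adjusted exact p = 0.0375 over the 6 ratios). Without dark column 1 that change was log2 0.47 (adjusted exact p = 0.0416). The change of CHLM relative to AT1G74470 was log2 -0.07, with an exact interval of -0.70 to 0.59 (two-sided exact permutation p = 0.792).

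The 4 genes differed in where their variation lay. For Z-ISO, light against dark took 79.8% of the sum of squares of the 12 log2 values, and the replicate number took 8.46%. For HEMA3 these shares were 50.3% and 28.3%. For CHLM they were 3.13% and 75.6%, and for AT1G74470 0.179% and 94.9%. Over the 3178 tested probes without zeros the median was 10.1% for light against dark and 56.9% for the replicate number, so AT1G74470 and CHLM lay above that median for the number, and Z-ISO and HEMA3 above it for light. Most of the share of the number in AT1G74470 lay between the sets of consecutive numbers, 83.2% of the total. Its intensity was highest in numbers 5 and 6, 1.53 to 1.74 over both groups, while CHLM had its lowest value of each group in number 5, 0.590 in dark and 0.484 in light. The labels do not say what a number marks, and its part in these levels was not tested. The replicate number has more levels than light against dark, so it takes a larger share even of random variation. These shares describe the same values as the fits and were not tested.

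**Figure D4:**
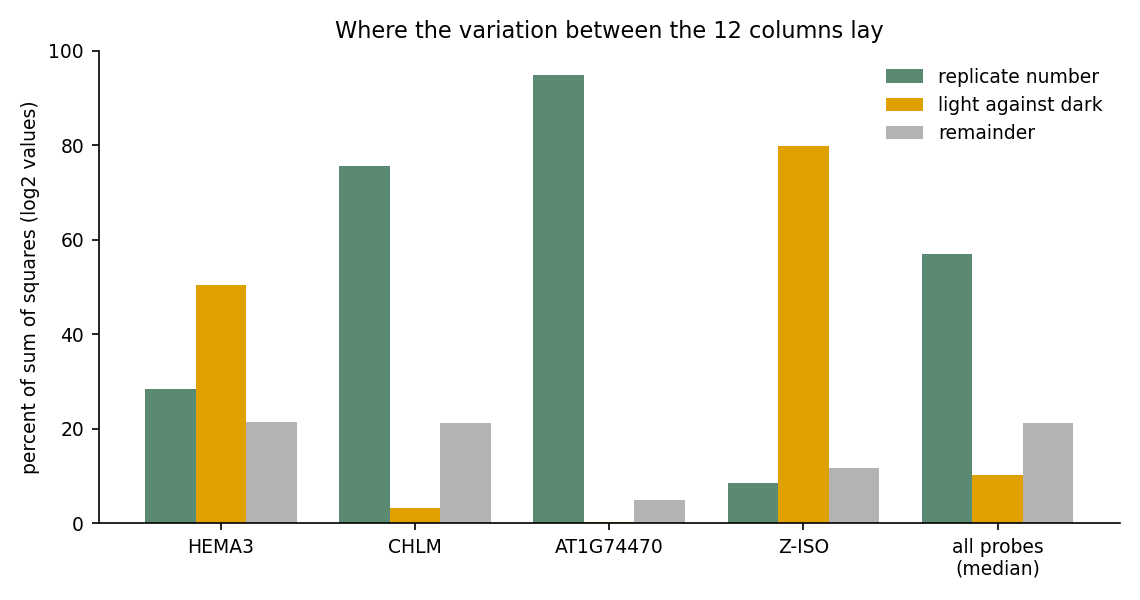
Percent of the sum of squares of the 12 normalised log2 values that lay between replicate numbers, between light and dark, and in the remainder, for each of the 4 genes and as the median over 3178 probes without zeros. Light against dark is the tallest bar for Z-ISO (79.8%) and HEMA3 (50.3%), and the replicate number for CHLM (75.6%) and AT1G74470 (94.9%). The replicate number has more levels than light against dark, which by itself raises its share.

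Few other genes of the surrounding pathways could be followed. Of 91 genes listed for tetrapyrrole, chlorophyll, haem, carotenoid, isoprenoid precursor and tocopherol metabolism, 6 had a probe naming 1 gene: the 4 above, SIRB and VTE6. A further 5 of the 91 were on probes that name several genes, which were not used. Of the 6, 0 passed as higher and 1, Z-ISO, as lower, with 2 positive and 4 negative differences and a median log2 difference of -0.043. Over all 3409 probes tested, 2.61% passed as higher and 3.17% as lower, with 1714 positive and 1695 negative differences. SIRB, the ferrochelatase that ends the sirohaem branch, was dim and uneven, at 0.0626 to 0.431 in dark and 0.0721 to 0.399 in light. Its log2 difference was -0.067 with a 95% interval of -1.27 to 1.13 (limma adjusted p = 0.975). VTE6, which encodes a kinase that returns phytol from chlorophyll to tocopherol synthesis, had 0.475 to 0.569 in dark and 0.539 to 0.648 in light. It was higher in light in 6 of 6 numbers, as were 11.1% of all probes tested. The log2 difference of VTE6 was 0.16, with a 95% interval of -0.019 to 0.35, and did not pass (limma adjusted p = 0.309). The marker LHB1B2, whose protein binds the chlorophyll made by this pathway, differed by log2 0.013 between the groups (limma adjusted p = 0.968), by 0.14 without normalisation (limma adjusted p = 0.551) and by 0.19 after median centring (limma adjusted p = 0.455).

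For each of the 4 genes, the probes naming 1 gene with the most similar course over the 12 columns were ranked among 502 probes without zeros and above the lower quartile of intensity. These correlations are descriptions, since the columns share replicate numbers and light. Z-ISO was most like AT5G58330, the chloroplast NADP-dependent malate dehydrogenase (r = 0.886), AT3G18870 of the mTERF family (r = 0.877) and AT4G17440 (r = 0.874). Once the group means were subtracted these fell to between 0.338 and 0.450, so the likeness lay largely in the shared difference between light and dark. HEMA3 was most like AT2G06040 (r = 0.850), FZL, a dynamin-like protein that shapes thylakoids (r = 0.843), and AT4G31060 (r = 0.831), with 0.649 to 0.711 after subtraction. AT1G74470 was most like PRK, the phosphoribulokinase of the Calvin cycle (r = 0.881), AT1G62010 (r = 0.833) and AT1G21660 (r = 0.824). CHLM was most like AT3G13150 (r = 0.817), AT4G24090 (r = 0.787) and AT1G16080 (r = 0.770). For AT1G74470 and CHLM the values after subtraction, 0.825 to 0.883 and 0.772 to 0.818, were close to those before it.

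**Figure D5:**
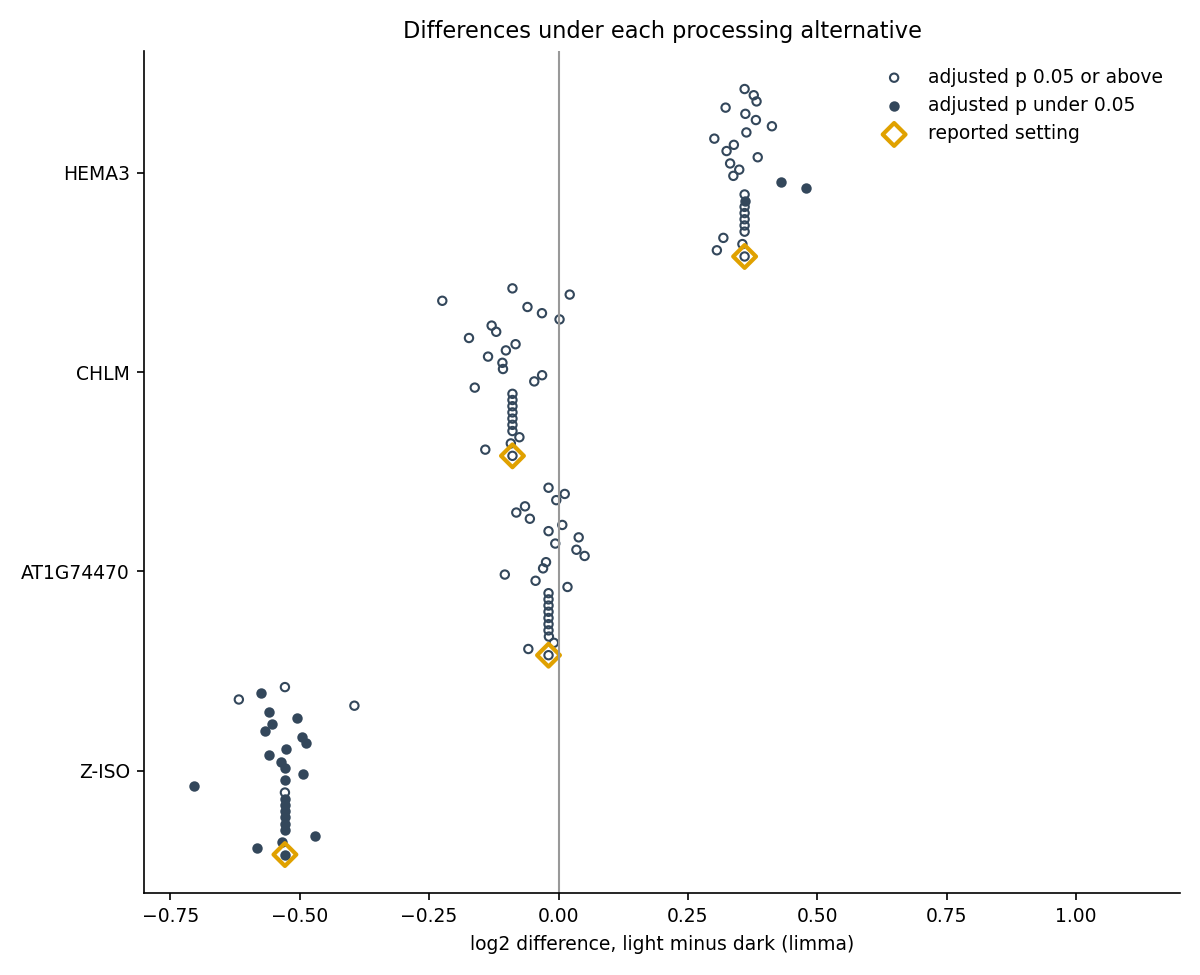
Log2 difference of light minus dark for the 4 genes under the reported setting (diamond) and the 27 alternatives, filled where the limma adjusted p is under 0.05 and open otherwise; the vertical spread only separates the points. Z-ISO stays between -0.70 and -0.39 and HEMA3 between 0.30 and 0.48, while points of CHLM and AT1G74470 fall on both sides of 0.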

How the data were processed

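The authors deposited linear intensity values in 1 table, with 3439 probes and 12 columns, 6 per group. Their background treatment and scaling were not stated in the labels. No value was negative or above 100, and each column held 129 to 148 exact zeros. The number of arrays limits the precision. Gene names come from the platform annotation and can be old, and 690 of the 692 that name 1 gene were matched to a locus of RefSeq's TAIR10.1 table, used for names only.

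Columns were quantile-normalised with zeros kept at 0, transformed as log2(value + 2.53e-05), with the smallest positive value of the table as offset, and tested two-sided by lmFit and eBayes of limma 3.58.1 (R 4.3.3) without the 30 probes at 0 in every column. Ratios of 2 genes within a column were tested with exact permutation tests over columns in Python 3.11.15, with intervals from inverting the test. The fit was tested on simulated data whose columns were independent, so how it does with columns that deviate together was not tested.

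Same-numbered columns of opposite groups deviated together over 2554 probes, with correlations of 0.660 to 0.786, and all 12 correlated best with the column of their own number, so by the values the numbers pair the columns. In a group, consecutive numbers (1 and 2, 3 and 4, 5 and 6) correlated by 0.30 on average and others by -0.32, so n = 6 is a number of columns, which may exceed that of separate samples. Alternatives changed the scaling, offset, filter, moderation, blocks and the columns used. The genes, lists and tests were chosen with earlier results of these data known. Named genes were the 4 members, every listed pathway gene with a probe naming 1 gene, and the 3 most correlated probes for each member.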

Additional observations from a re-analysis of the deposited data

Results flagged for a closer look

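Of 14 groups of 6 intensities, 2 held a column whose gap to its nearest neighbour was over 0.625 of the range (Dixon's critical value), which chance does in about 1 of 20 groups. In both it was light column 5. VTE6 was at 0.648 there, against 0.539 to 0.579 in the other light columns. LHB1B2 was at 14.8, against 10.4 to 12.0. Dark column 5 was also the highest dark column of both genes, with VTE6 at 0.569 and LHB1B2 at 13.1. HEMA3 in dark column 1, at 0.941 against 0.605 to 0.734, came close to that limit with a gap of 0.616 of the range.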

How the results depend on the processing

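Alternatives with consecutive numbers of both groups as a random block, with averaged and blocked columns, and all those for SIRB, VTE6, LHB1B2 and ratios between tetrapyrrole genes were added after the data had been seen. Of 27 alternatives, Z-ISO kept its direction in all and its call in 23. The 4 others were averaged consecutive numbers (log2 -0.53, adjusted p = 0.414), averaged and blocked (-0.53, adjusted p = 0.225), without numbers 1 and 2 (-0.39) and without 3 and 4 (-0.62). HEMA3 passed in 3: with a random block over both groups (0.36, adjusted p = 0.0301), centred within runs of 96 probe numbers (0.48, adjusted p = 0.0306) and without dark column 1 (0.43). CHLM turned to 0.022 without numbers 5 and 6, and AT1G74470 to 0.012 there and to 0.017 with centred runs. So did SIRB (0.014) and LHB1B2 (-0.00053) without numbers 5 and 6, LHB1B2 (-0.0094) without 1 and 2, and CHLM over AT1G74470 without 1 and 2 (0.0048) or 5 and 6 (0.0096). Averaging left the Z-ISO ratios to CHLM, AT1G74470 and HEMA3 at -0.44, -0.51 and -0.89 but not passing. Without numbers 3 and 4 they were -0.39, -0.61 and -1.0, and without 1 and 2 the ratio to AT1G74470 was -0.33, none passing. Without 3 and 4 the ratio to HEMA3 was at the smallest exact p possible for 4 columns against 4 before adjustment.

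The replicate block changed no call of the 4 genes. It raised the count of called probes from 197 to 448. That count was 451 with the random block over both groups, 42 with one within groups, 0 averaged (335 at an unadjusted p under 0.05), 0 averaged and blocked (618), 73 without numbers 1 and 2, 0 without 3 and 4 (463) and 112 without 5 and 6. The share of calls higher in light was 45.2%, 34.6% as deposited, 52.9% after median centring and 50.9% with the replicate block.

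Leaving out 1 column gave 106 to 177 calls, fewest without light column 4, and the count fell by more than 1.5 times without dark 2 or 4 or light 1, 2, 3, 4 or 6. Log2 differences then ran from -0.57 to -0.49 for Z-ISO, 0.30 to 0.43 for HEMA3, -0.17 to 0.0020 for CHLM, -0.10 to 0.050 for AT1G74470, -0.40 to 0.23 for SIRB and -0.041 to 0.049 for LHB1B2. The Z-ISO ratios ran from -0.53 to -0.32 (CHLM), -0.61 to -0.39 (AT1G74470) and -0.97 to -0.80 (HEMA3), CHLM over AT1G74470 from -0.21 to 0.072, HEMA3 over CHLM from 0.37 to 0.54 and HEMA3 over AT1G74470 from 0.26 to 0.47. The causes were not tested.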
